A study of Mus musculus with 6 samples.

Results

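The 47 genes described here encode non-collagen proteins of the extracellular matrix and the enzymes that crosslink or process it. They were taken by name from 35865 mouse genes, and each of the 47 was found once in the annotation. By role they comprise 6 fibrillins and latent TGF-beta binding proteins, 11 elastin, fibulin and microfibril-associated genes, 9 genes of fibronectin and the basement membrane, 9 proteoglycans, 7 genes of crosslinking and collagen processing, and 5 ADAMTS and ADAMTS-like genes. RNA had been sequenced from cardiac macrophages sorted from digested hearts of mice on the C57BL/6J strain, and the macrophages derived from donor haematopoietic progenitor cells. There were 3 libraries from cells deficient in Tet2 (Tet2 KO) and 3 from cells with intact Tet2 (Tet2 WT). Tet2 encodes a dioxygenase that oxidises 5-methylcytosine and is often mutated in clonal expansions of blood cells. The study concerned cardiac dysfunction with age in mice that carried such cells without conditioning. Neither the deleted part of Tet2, nor age, sort gate or number of animals behind a library is given in the sources used here, so p-values speak only of the spread among the 6 libraries, and that spread may be technical.

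Elastic fibres form when elastin is deposited on microfibrils of fibrillin with the help of fibulins, and the microfibrils also hold latent TGF-beta through its binding proteins. Basement membranes are sheets of laminin and type IV collagen bridged by nidogens and perlecan. Small leucine-rich proteoglycans such as decorin coat collagen fibrils, and lysyl oxidases link collagen and elastin molecules to each other. In the heart most of this matrix is made by fibroblasts. Macrophages are known mainly for engulfing and remodelling matrix, although they can make fibronectin and a few other components.

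The libraries held 37349505 to 55771087 estimated counts. Tet2 itself stood at 81.2, 82.6 and 78.2 TMM-normalised counts scaled to library size (CPM) in Tet2 KO, against 57.5, 76.1 and 60.8 CPM in Tet2 WT. The fitted log2 fold change was 0.32 ± 0.14 SE by edgeR (adjusted p = 0.159), and reads from an undeleted part of the gene would not test the knockout. The macrophage label was set against 15 pan-macrophage markers, which together made up 32699 to 40485 CPM in Tet2 KO, against 19049 to 26126 CPM in Tet2 WT, and 12 of them were called higher. The libraries also carried transcripts of other heart cells. The 16 fibroblast markers chosen outside the matrix, among them Pdgfra and Tcf21, summed to 213 to 441 CPM in Tet2 KO, against 1856 to 3324 CPM in Tet2 WT. These markers were chosen with earlier results of these data known, so their fall is not an independent finding. All 15 of these that could be tested were called lower in Tet2 KO, with a median log2 fold change of -2.98. Over all 16386 genes tested, 10.1% were called lower and 6.11% higher at an edgeR adjusted p under 0.05. None of the 16 fibroblast markers was at 0 in all libraries of either genotype. Fewer fibroblasts among the sorted cells and less RNA per fibroblast cannot be told apart in these bulk libraries.

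Almost the whole set of matrix genes was lower in Tet2 KO macrophage libraries. By edgeR's quasi-likelihood test with Benjamini-Hochberg adjustment, 44 of the 47 genes fell and 0 rose at an adjusted p under 0.05, where 10.1% of all 16386 genes tested were called lower and 6.11% higher. No member reached an unadjusted p under 0.05 in the upward direction, and DESeq2 and limma voom likewise called 0 higher and 44 lower. The median log2 fold change was -3.01 (quartiles -3.30 and -2.65), beside 0.00 over all genes tested. In 40 genes the log2 fold change lay below -2. The 3 genes that were not called were Emilin2, Fn1 and Nid2. The TMM-normalised CPM of the genotypes did not overlap for 46 of the 47, against 34.5% of all genes tested. The 46 include Emilin2, the only one of them that was higher in Tet2 KO. Of all genes tested, 18.1% did not overlap and were lower in Tet2 KO. All 47 genes passed the filter on low counts, and 46 had at least 10 counts in every Tet2 KO library. Summed over the set, CPM was 2438, 1630 and 2497 in Tet2 KO and 18616, 10239 and 14941 in Tet2 WT.

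**Figure D1:**
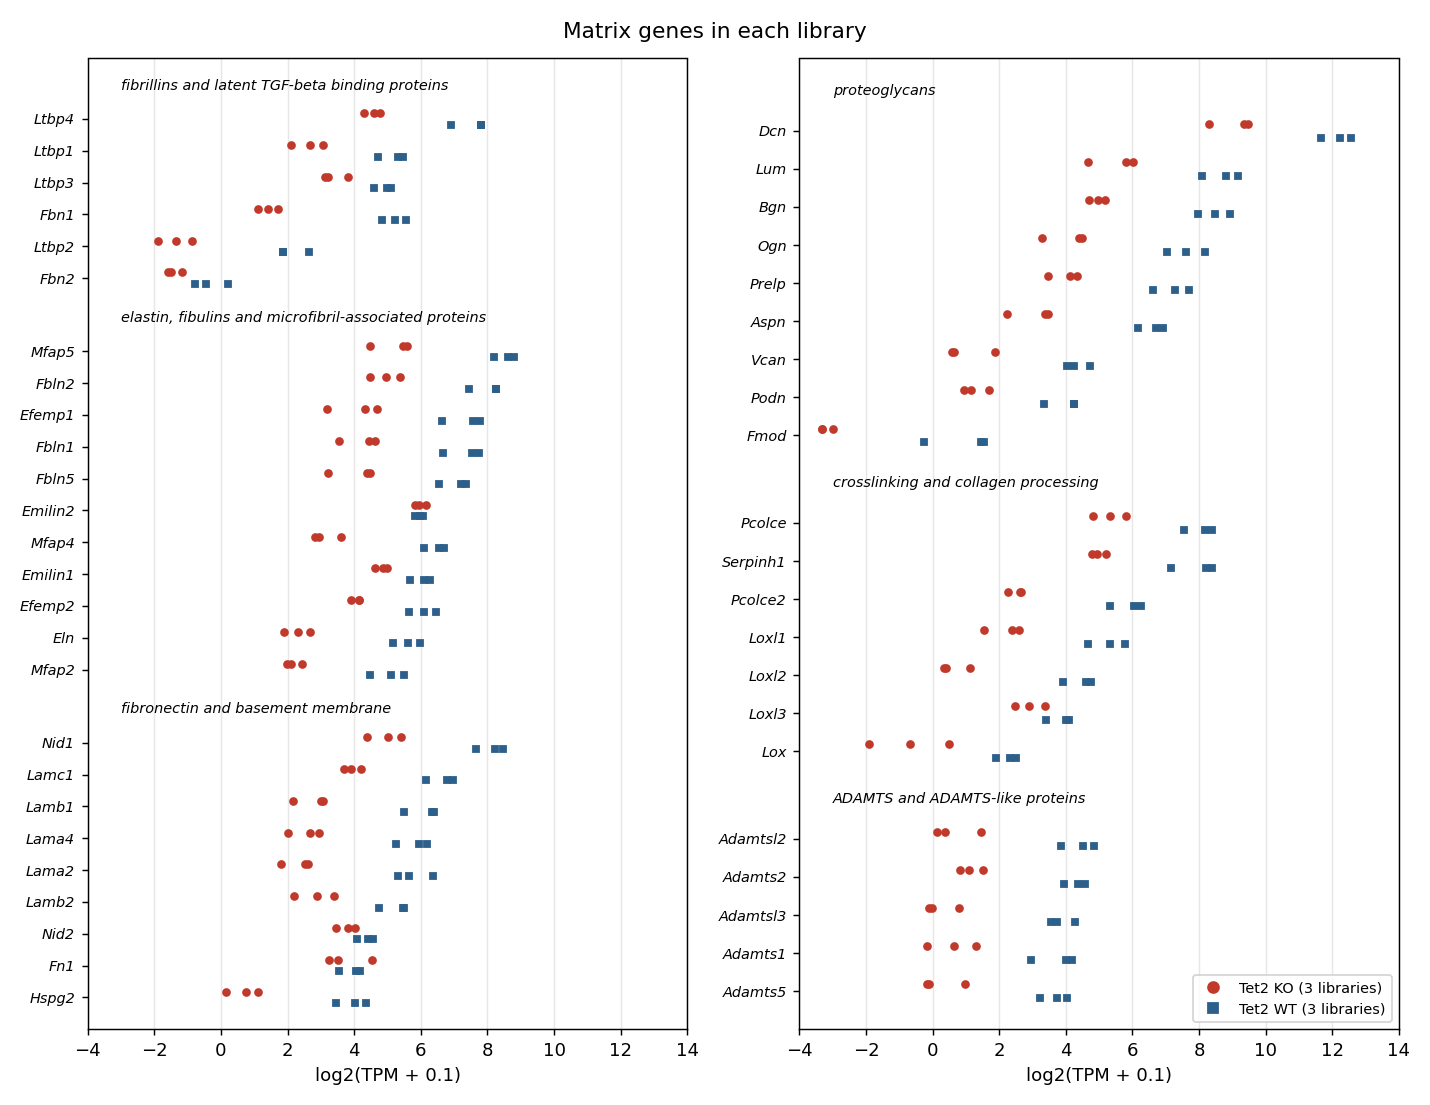
Level of each of the 47 matrix genes in each library, as log2(TPM + 0.1), grouped by role and ordered within each role by mean TPM. Circles are the 3 Tet2 KO libraries and squares the 3 Tet2 WT libraries. Circles lie left of squares without overlap in 45 genes, and the symbols overlap for Emilin2 and Fn1.

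The libraries of a genotype differed among themselves in a way shared by most of the set. In TPM (reads scaled to transcript length and library depth), Tet2 KO replicate 2 was the lowest Tet2 KO library for 35 of the 47 genes. Tet2 WT replicate 2 was the lowest Tet2 WT library for 44, and Tet2 WT replicate 1 the highest for 38. Fibroblast markers outside the matrix were ordered alike: Tet2 KO replicate 2 was lowest for 10 of the 15 tested, and Tet2 WT replicate 2 for 15 of 15. The order in Tet2 KO was not particular to them. Pan-macrophage markers summed to 43773, 34260 and 38622 TPM in Tet2 KO, also lowest in replicate 2. In Tet2 WT they summed to 22964, 30599 and 27141 TPM, highest in replicate 2. The share of all genes with either order was not computed. Without replicate 1 of both genotypes, 42 members were called lower, and with any single library left out between 41 and 45.

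Promoter sequences are shown for 3 members that the results below turn on. Ltbp4 has a pair of start sites, and appreciable counts were assigned only to transcripts of the downstream one. Adamtsl2 had the largest fall among the ADAMTS group, and Emilin2 did not pass the test. Each sequence is the 250 bases before a RefSeq start (build GRCm38.p6), 5′ to 3′ on the strand of the gene, and capitals mark matches on either strand to the TATA box TATAAA, the GC box GGGCGG, the CCAAT box, the AP-1 motif TGANTCA, the TEAD motif CATTCC or the ETS core GAGGAA, which the macrophage factor PU.1 binds.
Ltbp4 downstream start, chr7:27333664-27333913, minus strand: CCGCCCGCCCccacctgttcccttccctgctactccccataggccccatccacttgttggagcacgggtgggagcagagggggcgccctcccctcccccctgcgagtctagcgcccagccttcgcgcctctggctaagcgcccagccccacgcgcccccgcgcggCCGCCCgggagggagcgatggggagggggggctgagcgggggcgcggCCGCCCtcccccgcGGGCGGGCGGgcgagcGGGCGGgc
Ltbp4 upstream start, chr7:27337613-27337862, minus strand: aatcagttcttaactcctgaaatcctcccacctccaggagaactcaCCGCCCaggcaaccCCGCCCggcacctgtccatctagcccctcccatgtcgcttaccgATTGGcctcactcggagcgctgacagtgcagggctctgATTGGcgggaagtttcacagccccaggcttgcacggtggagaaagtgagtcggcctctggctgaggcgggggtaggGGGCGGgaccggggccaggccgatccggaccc
Adamtsl2, chr2:27079129-27079378, plus strand: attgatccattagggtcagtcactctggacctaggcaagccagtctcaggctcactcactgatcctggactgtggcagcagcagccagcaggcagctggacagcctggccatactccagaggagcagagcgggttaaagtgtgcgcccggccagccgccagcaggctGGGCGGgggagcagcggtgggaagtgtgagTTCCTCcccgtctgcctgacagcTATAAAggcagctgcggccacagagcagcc
Emilin2, chr17:71311012-71311261, minus strand: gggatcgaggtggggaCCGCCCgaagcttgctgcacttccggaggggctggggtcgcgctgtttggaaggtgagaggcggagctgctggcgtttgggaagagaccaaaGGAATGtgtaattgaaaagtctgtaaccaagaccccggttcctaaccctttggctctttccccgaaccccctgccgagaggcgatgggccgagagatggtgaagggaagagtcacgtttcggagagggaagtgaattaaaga
The downstream Ltbp4 window, with 79.2% G and C, held 7 GC boxes, some of which overlapped each other, and no other match. Its upstream window held 3 GC boxes and 2 CCAAT boxes. In Adamtsl2 a TATA box began 30 bases before the start, with 1 GC box and 1 ETS core further away, and Emilin2 held 1 GC box and 1 TEAD match. RefSeq windows were matched for 32 of the 47 genes, 42 windows in all. A GC box was present in 64.3% of those windows, in 42.6% of the 21262 windows of protein-coding genes and in 32.7% of all 32851. TATA boxes were in 9.52% of the members' windows, 11.6% of protein-coding windows and 12.4% of all. In the same order, CCAAT boxes were in 21.4%, 35.4% and 33.9%, and AP-1 matches in 2.38%, 6.13% and 6.75%. TEAD matches were in 9.52%, 11.7% and 12.6%, and ETS cores in 21.4%, 22.25% and 23.3%.

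Among fibrillins and latent TGF-beta binding proteins, all 6 genes fell, with log2 fold changes between -4.35 and -1.51. Ltbp4, which tethers latent TGF-beta and takes part in elastic fibre assembly, was the most abundant of them (GRCm38 chromosome 7, 27305136 to 27337692, minus strand). It stood at 24.1, 19.6 and 27.0 TPM in Tet2 KO, against 224, 120 and 224 TPM in Tet2 WT (log2 fold change -2.84 ± 0.24 SE, edgeR adjusted p = 0.000117). The highest Tet2 KO library was thus well below the lowest Tet2 WT library. Ltbp1, the best-studied carrier of latent TGF-beta, was at 6.33, 4.16 and 8.32 TPM in Tet2 KO, against 44.0, 25.9 and 39.5 TPM in Tet2 WT (-2.66 ± 0.38, edgeR adjusted p = 0.00239). Its call was lost without replicate 1 of both genotypes (edgeR adjusted p = 0.065). Ltbp2, a microfibril-associated member that does not bind latent TGF-beta, had the largest fall of this group, at 0.289, 0.451 and 0.172 TPM in Tet2 KO, against 6.20, 3.50 and 3.53 TPM in Tet2 WT (-4.35 ± 0.39, edgeR adjusted p = 0.000155). Tet2 WT replicate 1 was highest for it, and all Tet2 KO libraries were under 1 TPM. Fbn1, the main fibrillin of adult microfibrils, averaged 2.61 ± 0.564 TPM in Tet2 KO, against 37.3 ± 9.16 TPM in Tet2 WT (SD, n = 3 each). Ltbp3, another carrier of latent TGF-beta, fell by less, to 10.6 ± 2.84 TPM in Tet2 KO against 29.9 ± 5.29 TPM in Tet2 WT. Fbn2, the fibrillin of developing tissue, was barely present, at 0.279 ± 0.0583 TPM in Tet2 KO, against 0.719 ± 0.298 TPM in Tet2 WT. Most of that TPM was assigned to noncoding transcripts, which are shorter than the protein-coding one. In estimated counts Fbn2 had 93.2, 30.4 and 87.4 from its protein-coding transcript in Tet2 WT, of 145, 56 and 103. In Tet2 KO Fbn2 had 2, 9.80 and 3.02 from that transcript, of 12, 23 and 18. Its call (edgeR adjusted p = 0.0131) was lost with length-scaled counts (0.135), with limma on log2(TPM + 1) (0.0868), without Tet2 WT replicate 1 (0.085), without Tet2 KO replicate 3 (0.0546) and without replicate 1 of both genotypes (0.141).

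Nearly all estimated counts of Ltbp4 were assigned to transcripts of its downstream start in both genotypes. In mouse and human the upstream start gives the long form and the downstream start the short form of the protein. Transcripts of the downstream start took 100%, 100% and 99.9% of the gene's estimated counts in Tet2 KO, against 99.7%, 99.8% and 99.9% in Tet2 WT. The 2 transcripts of the upstream start took 0 of 3231, 0 of 4071 and 0 of 5358 counts in Tet2 KO, which allows shares of up to 0.0929%, 0.0737% and 0.0560% by the limit of 3 counts, and up to 0.114%, 0.0906% and 0.0688% by the upper end of the 95% Clopper-Pearson interval. In Tet2 WT they took 0.0686%, 0.142% and 0.127% (95% Clopper-Pearson intervals 0.0453 to 0.0986%, 0.0983 to 0.198% and 0.0949 to 0.167%). These limits and intervals cover counting error only, and they take all estimated counts of the gene as trials. Reads shared by transcripts of both starts are divided by a model, so fewer reads tell the starts apart and the intervals can be too narrow. The upper ends of the Tet2 KO intervals all lay below the shares of Tet2 WT replicates 2 and 3 and above the share of Tet2 WT replicate 1. For that reason no difference between the genotypes is read from these shares.

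In the group of elastin, fibulins and microfibril-associated proteins, 10 of 11 genes fell. Mfap5, a small glycoprotein of fibrillin microfibrils, was at 43.9, 22.2 and 47.6 TPM in Tet2 KO, against 448, 293 and 393 TPM in Tet2 WT (log2 fold change -3.16 ± 0.32 SE, edgeR adjusted p = 0.000345). Fbln2, a fibulin of vessel walls and basement membranes, was at 31.2, 21.9 and 41.3 TPM in Tet2 KO, against 308, 175 and 304 TPM in Tet2 WT (-2.90 ± 0.28). Eln, the elastin precursor, had the largest fall here, with 4.85, 3.64 and 6.23 TPM in Tet2 KO, against 62.2, 35.6 and 49.2 TPM in Tet2 WT (-3.18 ± 0.25). In each of these genes the genotypes were far apart, and replicate 2 was the lowest library on either side. Fbln1, Fbln5, Efemp1, Mfap2 and Mfap4 had log2 fold changes between -3.14 and -2.78. Fbln5 encodes a fibulin needed for elastic fibre assembly, and Mfap2 and Mfap4 encode further microfibril-associated glycoproteins. Efemp2, which encodes fibulin-4 and brings lysyl oxidase to elastin, fell by less (-1.93 ± 0.21), with 16.6 ± 1.66 TPM in Tet2 KO, against 68.8 ± 18.6 TPM in Tet2 WT (SD, n = 3 each).

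The EMILIN genes, whose products sit between elastin and microfibrils, included 1 that fell by less than most members and 1 that did not pass the test. Emilin1 fell by 1.07 ± 0.16 on the log2 scale (edgeR adjusted p = 0.002), and was at 31.6, 24.8 and 29.2 TPM in Tet2 KO, against 77.5, 51.2 and 68.4 TPM in Tet2 WT. Emilin2 (chromosome 17, 71252172 to 71311978, minus strand) was at 71.3, 56.9 and 62.0 TPM in Tet2 KO, against 57.0, 63.3 and 67.1 TPM in Tet2 WT, so the genotypes overlapped in TPM. In TMM-normalised CPM it stood at 194, 166 and 178 in Tet2 KO and 145, 154 and 166 in Tet2 WT, a log2 fold change of 0.21 ± 0.12 that did not pass the test (edgeR adjusted p = 0.297). With libraries scaled to the pan-macrophage markers, which moved the median of all genes by -0.71, its log2 fold change came to -0.51 (edgeR adjusted p = 0.0271). It was the most abundant member in Tet2 KO after Dcn by mean TPM, with 63.4 ± 7.33 TPM in Tet2 KO, against 62.5 ± 5.09 TPM in Tet2 WT.

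Of fibronectin and the basement membrane genes, 7 of 9 fell. Nid1, which encodes nidogen-1, the link between laminin and type IV collagen, was at 32.2, 20.9 and 42.5 TPM in Tet2 KO, against 353, 201 and 300 TPM in Tet2 WT (log2 fold change -3.06 ± 0.30 SE, edgeR adjusted p = 0.000259). Lamc1, the laminin gamma-1 chain common to most laminins, was at 14.7, 12.8 and 18.1 TPM in Tet2 KO, against 124, 71.3 and 110 TPM in Tet2 WT (-2.64 ± 0.23). Lama2, the alpha chain of muscle laminin, had the largest fall, at 5.68, 3.39 and 6.06 TPM in Tet2 KO, against 82.3, 39.8 and 50.1 TPM in Tet2 WT (-3.45 ± 0.25). No library of a genotype crossed into the range of the other for these genes. Lama4, the alpha chain of vascular laminin, Lamb1 and Lamb2, which are beta chains, and Hspg2, which encodes perlecan, had log2 fold changes from -3.24 to -2.22. Endothelial markers, 1 of 14 of which was called lower (Tek), summed to 111 to 162 CPM in Tet2 KO, against 142 to 275 CPM in Tet2 WT, so their ranges overlapped.

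Fn1 and Nid2 did not pass the test. Fn1 (chromosome 1, 71585520 to 71653200, minus strand), which encodes fibronectin, was at 11.4, 23.0 and 9.37 TPM in Tet2 KO, against 11.6, 16.4 and 17.8 TPM in Tet2 WT (log2 fold change 0.07 ± 0.36 SE, edgeR adjusted p = 0.931). The range of Tet2 KO contained that of Tet2 WT, and Tet2 KO replicate 2, the library with the fewest fibroblast transcripts, was the highest of the 6. Without that library the log2 fold change was -0.53 (edgeR adjusted p = 0.0693). Nid2, the second nidogen, was at 16.3, 10.9 and 14.1 TPM in Tet2 KO, against 21.1, 16.9 and 23.7 TPM in Tet2 WT (-0.52 ± 0.18, edgeR adjusted p = 0.0765). Its Tet2 KO libraries were all below its Tet2 WT libraries, and it was called lower in 4 other settings, among them the pan-macrophage scaling (-1.27, edgeR adjusted p = 0.0013) and the fit without Tet2 WT replicate 2 (-0.63, 0.0499).

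All 9 proteoglycan genes fell. Dcn (chromosome 10, 97479609 to 97518143, plus strand), which encodes decorin, was the most abundant of the 47 genes, at 707, 315 and 657 TPM in Tet2 KO, against 6096, 3262 and 4836 TPM in Tet2 WT (log2 fold change -2.92 ± 0.33 SE, edgeR adjusted p = 0.000483). It made up 50.3%, 40.2% and 48.3% of the summed TPM of the set in Tet2 KO and 52.1%, 51.7% and 50.2% in Tet2 WT. Lum, the related proteoglycan lumican, was at 64.1, 25.3 and 55.3 TPM in Tet2 KO, against 571, 273 and 451 TPM in Tet2 WT (-3.01 ± 0.38). As with most of the set, replicate 2 of either genotype was the lowest. Bgn (biglycan), Ogn (osteoglycin), Prelp, Aspn (asporin) and Podn (podocan), which belong to the same leucine-rich family, and Vcan, the large hyaluronan-binding proteoglycan versican, had log2 fold changes between -3.39 and -2.58.

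Fmod, which encodes fibromodulin and regulates collagen fibril assembly, was all but absent from Tet2 KO libraries (chromosome 1, 134037254 to 134048277, plus strand). It was at 0, 0 and 0.025 TPM in Tet2 KO, against 2.82, 0.744 and 2.65 TPM in Tet2 WT. These levels rest on 3 counts in all Tet2 KO libraries together and 691 in Tet2 WT. The ratio of Tet2 WT to Tet2 KO was 196, with a 95% Clopper-Pearson counting interval from 66.9 to 954, and the fitted log2 fold change was -7.50 ± 0.94 (edgeR adjusted p = 0.000729).

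Genes of crosslinking and collagen processing all fell, 7 of 7. Pcolce, whose product enhances removal of the procollagen C-propeptide, was at 55.8, 27.8 and 40.3 TPM in Tet2 KO, against 332, 185 and 288 TPM in Tet2 WT (log2 fold change -2.57 ± 0.28 SE, edgeR adjusted p = 0.000478). Serpinh1, the collagen chaperone HSP47 of the endoplasmic reticulum, was at 30.6, 27.7 and 36.9 TPM in Tet2 KO, against 298, 143 and 333 TPM in Tet2 WT (-2.85 ± 0.28). Loxl2, a lysyl oxidase that acts on type IV collagen, had the largest fall, at 2.09, 1.22 and 1.17 TPM in Tet2 KO, against 27.0, 15.0 and 24.2 TPM in Tet2 WT (-3.60 ± 0.24). The genotypes did not overlap in any of them. Loxl1, the lysyl oxidase of elastic fibres, and Pcolce2 had log2 fold changes of -2.97 ± 0.34 and -3.29 ± 0.26. Lox itself was low, at 0.663 ± 0.575 TPM in Tet2 KO, against 4.70 ± 0.957 TPM in Tet2 WT (SD, n = 3 each), and its call (-2.73 ± 0.60, edgeR adjusted p = 0.016) was lost without the low-count filter (0.0892), without Tet2 WT replicate 1 (0.0518) and without Tet2 KO replicate 3 (0.0569). Loxl3, another lysyl oxidase, fell least of the called members, by 0.79 ± 0.22 on the log2 scale, with 10.2, 7.32 and 5.44 TPM in Tet2 KO, against 16.0, 10.5 and 16.9 TPM in Tet2 WT. The highest Tet2 KO library thus came close to the lowest Tet2 WT library, and the call (edgeR adjusted p = 0.0372) was lost in 4 of 6 leave-one-out fits, those without Tet2 KO replicate 2 or 3 and without Tet2 WT replicate 1 or 3 (edgeR adjusted p from 0.0894 to 0.146), and with length-scaled counts (0.074).

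All 5 ADAMTS and ADAMTS-like genes fell. Adamtsl2 (chromosome 2, 27079379 to 27108981, plus strand), whose product binds fibrillin-1 and LTBP1 and lacks protease activity, fell most, at 1.21, 2.62 and 0.992 TPM in Tet2 KO, against 28.8, 14.4 and 22.8 TPM in Tet2 WT (log2 fold change -4.01 ± 0.41 SE, edgeR adjusted p = 0.000364). Tet2 KO replicate 2 was here the highest Tet2 KO library. Adamts2, which removes the N-propeptide of fibrillar procollagens, was at 2.04, 1.65 and 2.78 TPM in Tet2 KO, against 23.8, 15.4 and 20.7 TPM in Tet2 WT (-3.09 ± 0.23). Adamts1 and Adamts5, proteases that cut versican and aggrecan, and Adamtsl3 had log2 fold changes of -2.88 ± 0.44, -3.31 ± 0.37 and -3.65 ± 0.25.

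**Figure D2:**
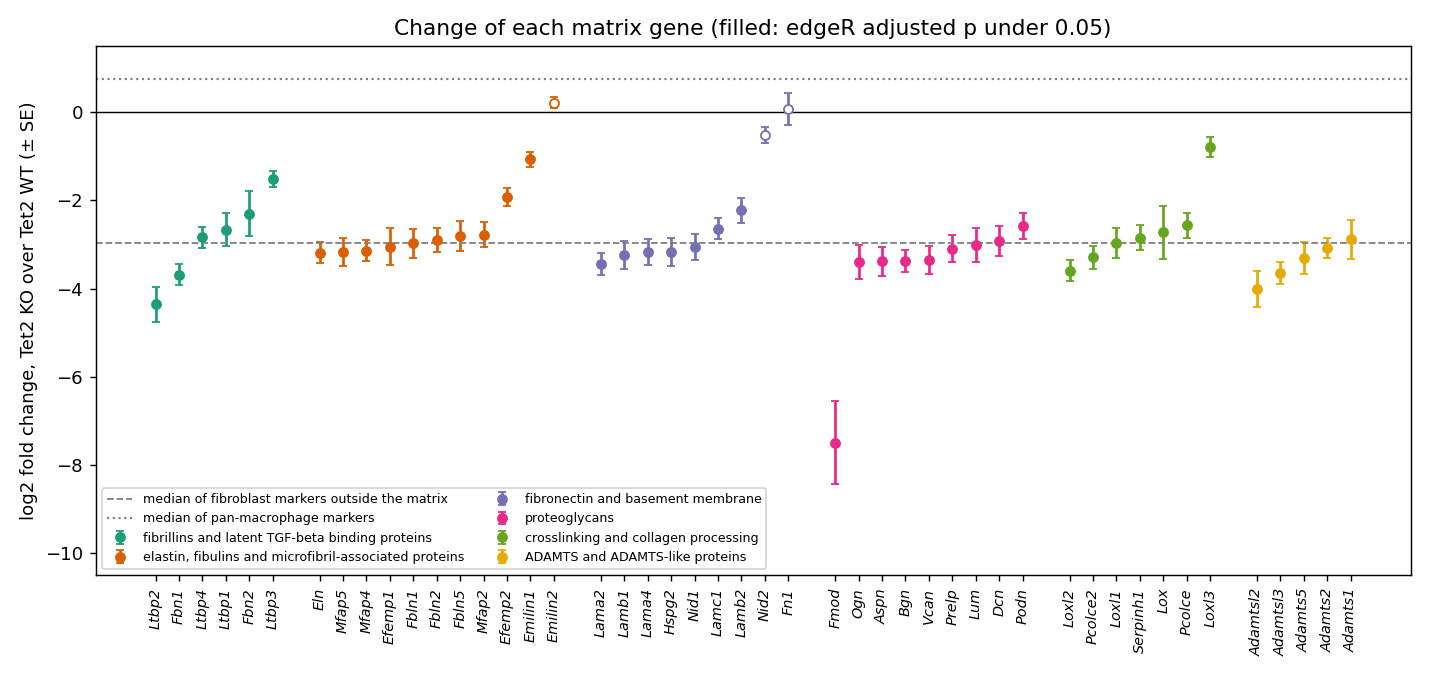
Fitted log2 fold change of each matrix gene, Tet2 KO over Tet2 WT, with its standard error, grouped by role; filled points passed an edgeR adjusted p under 0.05 and open points did not. Most points lie near the dashed line, the median of the fibroblast markers outside the matrix (-2.98), Emilin2, Fn1, Nid2, Loxl3, Emilin1, Ltbp3 and Efemp2 lie above it, and Fmod lies far below; the dotted line is the median of the pan-macrophage markers (0.74).

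Each gene was next set against the fibroblast markers of the same library, by fitting the counts with the summed fibroblast marker counts in place of the library size. On this scale 38 of the 47 genes were not called, 7 were called higher and 2 lower in Tet2 KO. Over all genes tested 88.9% were called on it, 88.6% higher and 0.226% lower, and the median of all genes was 2.96 against -0.05 for the set. Among the 38 genes the log2 difference lay between -0.76 and 0.82, with standard errors of 0.47 to 0.93, and 30 were within 0.5 of 0. This fit could therefore not call differences of the size of those standard errors. The number of members called lower was 8 without Tet2 KO replicate 2 and 9 with replicate number as a block. A gene that was not called is thus not shown to match the markers. The part of the fibroblast transcripts in the lower levels of the matrix genes was not tested. Dcn, for example, had 203, 191 and 183 counts per 100 fibroblast marker counts in Tet2 KO and 205, 200 and 187 in Tet2 WT. Ltbp4 had 21.9, 37.1 and 23.3 in Tet2 KO and 23.6, 23.2 and 27.3 in Tet2 WT. The genotypes thus overlapped for Dcn and Ltbp4, but not for all of the 38 genes. Fbn1, Mfap5, Ogn, Aspn, Lamb1, Loxl2 and Adamtsl3 were lower in Tet2 KO without overlap, although not called. Lamb2, also not called, was higher in Tet2 KO without overlap. Mfap5 had 8.33, 8.12 and 8.73 in Tet2 KO and 10.19, 10.97 and 9.95 in Tet2 WT.

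The genes that were higher on that scale were Fn1 (log2 difference 3.23 ± 0.51 SE), Emilin2 (3.13 ± 0.52), Nid2 (2.39 ± 0.49), Loxl3 (2.17 ± 0.50), Emilin1 (1.89 ± 0.49), Ltbp3 (1.46 ± 0.48) and Efemp2 (1.14 ± 0.48), with edgeR adjusted p-values from 2.27e-09 to 0.0202. Emilin2 had 45.8, 77.9 and 40.5 counts per 100 fibroblast marker counts in Tet2 KO and 4.38, 8.31 and 6.01 in Tet2 WT. Emilin1 had 15.8, 26.8 and 16.4 in Tet2 KO and 4.86, 5.97 and 5.08 in Tet2 WT. The genotypes did not overlap for any of the 7 genes, and for each of them Tet2 KO replicate 2, which had the fewest fibroblast marker counts, stood highest. The share of all genes without overlap on this scale was not computed. As 88.6% of all genes tested were called higher on it, neither point is read as particular to these 7 genes. Fn1, Emilin2, Nid2, Loxl3 and Emilin1 were called in all 10 alternative fits, Ltbp3 in 9 and Efemp2 in 6. Efemp2 lost its call without Tet2 KO replicate 2 (log2 difference 0.62, edgeR adjusted p = 0.125), Tet2 WT replicate 1 (0.0576) or Tet2 WT replicate 3 (0.106), and without replicate 1 of both genotypes (0.076), and the last of these also ended the call of Ltbp3 (0.0575). Lower on that scale were Fmod (-4.74 ± 1.23, edgeR adjusted p = 0.00016), called in all 10, and Ltbp2 (-1.37 ± 0.64, edgeR adjusted p = 0.0384). Ltbp2 had 0.346, 0.374 and 0.156 counts per 100 fibroblast marker counts in Tet2 KO and 0.863, 0.809 and 0.573 in Tet2 WT, and lost its call in 6 of the 10, among them the fits without Tet2 KO replicate 3 and without any 1 of the Tet2 WT libraries (edgeR adjusted p from 0.075 to 0.16).

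**Figure D3:**
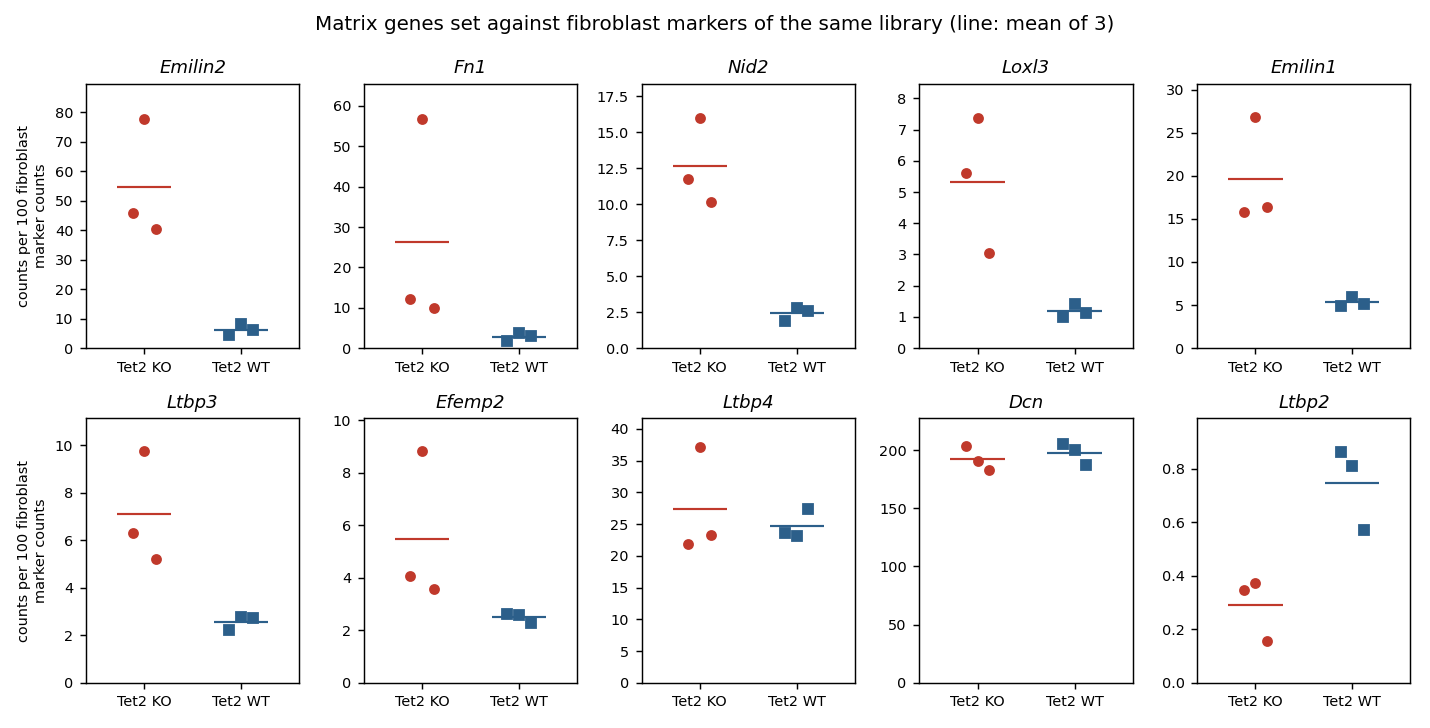
Estimated counts of 10 matrix genes per 100 counts of the fibroblast markers outside the matrix, in each of 3 Tet2 KO libraries (circles) and 3 Tet2 WT libraries (squares); lines are means and each panel has its own axis from 0. Emilin2, Fn1, Nid2, Loxl3, Emilin1, Ltbp3 and Efemp2 are higher in Tet2 KO, Ltbp4 and Dcn overlap, and Ltbp2 is lower.

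Pericyte and smooth muscle markers summed to 30.1 to 63.6 CPM in Tet2 KO, against 57.7 to 96.1 CPM in Tet2 WT, with 1 of 11 called lower (Abcc9). Cardiomyocyte markers were at 112 to 183 CPM in Tet2 KO, against 129 to 155 CPM in Tet2 WT, with 0 of 12 called by edgeR. Schwann cell markers were at 2.42 to 5.96 CPM in Tet2 KO, against 19.0 to 34.3 CPM in Tet2 WT, and Cdh19, 1 of the 2 that could be tested, was called lower (log2 fold change -3.07 ± 0.50, edgeR adjusted p = 0.00423). Mesothelial markers summed to 0.980 to 2.20 CPM in Tet2 KO, against 0.935 to 1.91 CPM in Tet2 WT, and only 2 of the 8 could be tested. Monocyte markers summed to 979 to 1751 CPM in Tet2 KO, against 472 to 913 CPM in Tet2 WT, with 0 of 6 called. Neutrophil markers summed to 63.5 to 72.6 CPM in Tet2 KO, against 36.8 to 50.6 CPM in Tet2 WT. Only 2 of the 6 could be tested, of which Csf3r was called higher.

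**Figure D4:**
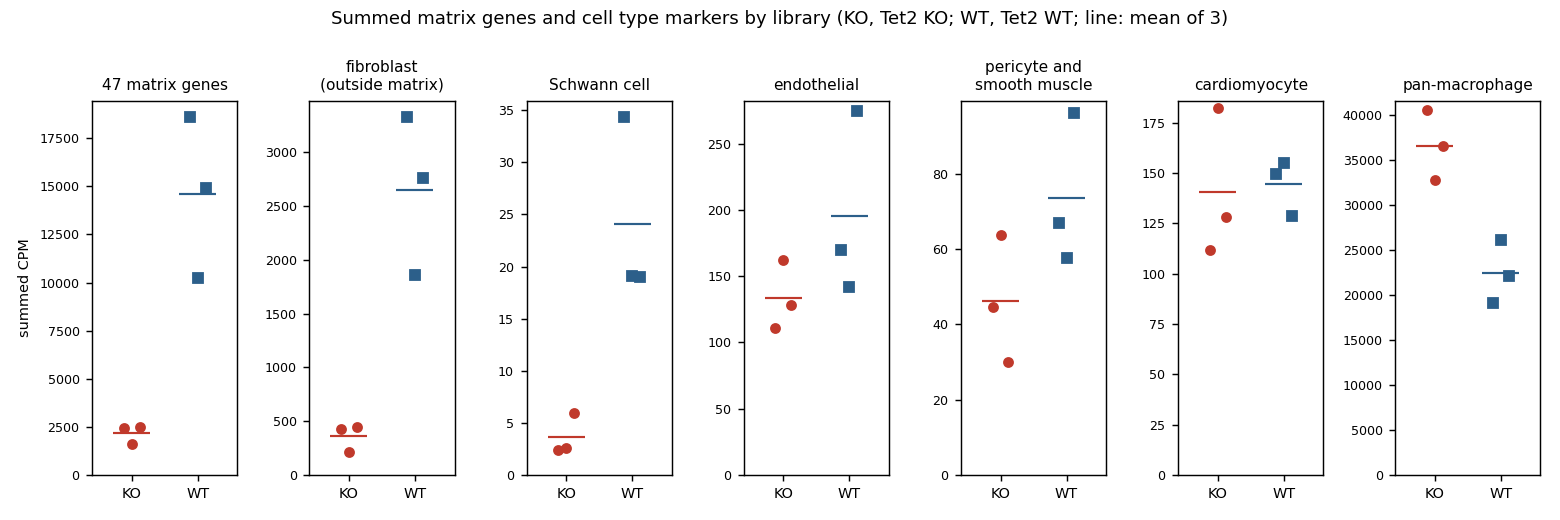
Summed CPM of the 47 matrix genes and of cell type markers in each of 3 Tet2 KO libraries (circles) and 3 Tet2 WT libraries (squares); lines are means and each panel has its own axis from 0. Matrix genes, fibroblast markers and Schwann cell markers are lower in Tet2 KO without overlap, endothelial, pericyte and cardiomyocyte sums overlap, and pan-macrophage markers are higher in Tet2 KO without overlap.

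Other genes of the same pathways were also examined. Of 85 further non-collagen matrix genes, 72 could be tested, of which 36 fell and 0 rose, with a median log2 fold change of -1.22. Of all 16386 genes tested, 10.1% were called lower and 6.11% higher. In the upward direction 4 of them (Mfap3, Srgn, Plod3 and F13a1) had an unadjusted edgeR p under 0.05, limma voom called 0 higher, and DESeq2 called 1 higher, F13a1 (log2 fold change 0.58, DESeq2 adjusted p = 0.0307). F13a1 encodes the coagulation transglutaminase subunit that resident macrophages make, and stood at 3999 CPM in Tet2 KO, against 2693 CPM in Tet2 WT on average. Basement membrane genes had 7 of 10 lower, among them Ntn4 (-3.20 ± 0.45), and microfibril and glycoprotein genes 5 of 13, led by Svep1 (-3.39 ± 0.38) and Tnxb (-3.03 ± 0.47). Proteoglycan and link genes had 6 of 13 lower, led by the cell-surface proteoglycans Gpc6 (-3.46 ± 0.32) and Sdc2 (-3.14 ± 0.31). Crosslinking and collagen processing genes had 10 of 20 lower, led by Tll2 (-3.35 ± 0.85) and the lysyl hydroxylase Plod2 (-3.29 ± 0.27), and ADAMTS genes 8 of 16, led by Adamts12 (-4.84 ± 0.81) and Adamts8, which had 0 CPM in each Tet2 KO library and a mean of 0.626 CPM in Tet2 WT. Not called were Plod1 (-0.04 ± 0.13), Plod3 (0.29 ± 0.12), P4ha1 (-0.22 ± 0.16) and P4hb (-0.16 ± 0.15), modifying enzymes of the endoplasmic reticulum that many cell types use.

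Transcript use within the genes was compared as the share of a gene's TPM taken by its leading transcript. The leading transcript was protein-coding for 46 of the 47 genes, the exception being Fbn2, and took over 90% of the gene's TPM in every library for 10 genes. Among the 43 members with several annotated transcripts, this share did not overlap between the genotypes for 7 (16.3%), against 13.6% of all tested genes with several transcripts. For Adamtsl2 the leading transcript took 51.2%, 62.2% and 68.6% in Tet2 KO and 81.6%, 81.7% and 92.4% in Tet2 WT, the remainder going mostly to retained-intron transcripts. For Efemp2 it took 67.2%, 58.6% and 66.6% in Tet2 KO and 81.0%, 77.3% and 77.4% in Tet2 WT. For Adamts1 it took 100%, 100% and 100% in Tet2 KO and 91.3%, 83.1% and 81.4% in Tet2 WT. The count of 7 was near the share over all genes, so nothing is read from it about the matrix genes. The shares also rest on few reads where the gene was low: the leading Adamtsl2 transcript had 57.7, 235 and 95.5 estimated counts in Tet2 KO and 3054, 1641 and 2689 in Tet2 WT. Aspn, Bgn, Lamb1 and Nid2 were the other 4, with smaller differences. Reads shared by transcripts of a gene are divided by a model, so these shares are estimates.

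**Figure D5:**
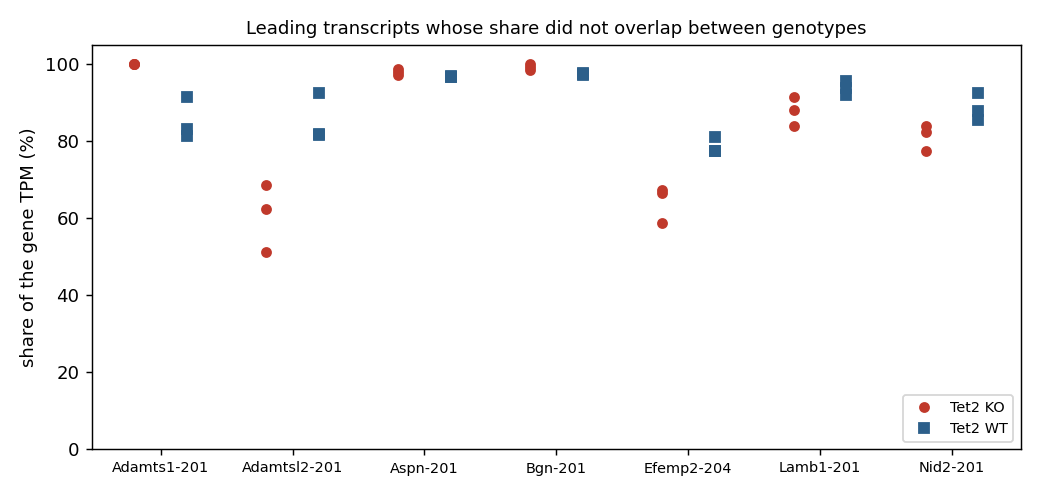
Share of the gene's TPM, in percent, taken by the leading transcript of the 7 matrix genes whose shares did not overlap, in 3 Tet2 KO libraries (circles) and 3 Tet2 WT libraries (squares). The share is lower in Tet2 KO for Adamtsl2, Efemp2, Lamb1 and Nid2 and higher for Adamts1, Aspn and Bgn; 7 of 43 genes (16.3%) is near the 13.6% of all tested genes with several transcripts.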

How the data were processed

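The submitters' processing notes name Trim Galore 0.6.4, kallisto 0.44.0 and the build GRCm38. Per the file headers, the authors deposited an estimated count and a TPM value for each of 118783 transcripts, with transcript lengths. Of these, 116622 (98.2%) matched GENCODE M21 by identifier without version. The rest, up to 0.671% of a library's counts, were left out.

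Estimated counts were summed per gene and rounded, filtered with edgeR's filterByExpr, TMM-scaled, then tested by edgeR 4.0.16 (quasi-likelihood, robust, genotype as the only term, R 4.3.3), with Benjamini-Hochberg adjustment over all 16386 genes tested. Standard errors are the absolute log2 fold change over the square root of F. The script was tested on simulated data. The fit relative to fibroblast markers replaced library sizes by the summed counts of 16 markers. Alternatives were RLE or pan-macrophage scaling, no low-count filter, DESeq2 1.42.0, limma 3.58.1 (voom, or log2(TPM + 1)), length-scaled counts, protein-coding transcripts only, a replicate block, and libraries left out.

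The members and lists were chosen with earlier results of these data known. Values in each library are given for the 2 most abundant members and the largest fall of each role and for members not called; other genes were chosen after their values were seen, except the 2 largest falls of each further list, of which 1 is not reported here. No libraries of a genotype agreed within sampling noise (chi-square per gene at least 63.9).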

Additional observations from a re-analysis of the deposited data

How the results depend on the processing

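Of the 44 members called lower, 40 were called in all 16 alternative fits, and the exceptions, Fbn2, Ltbp1, Lox and Loxl3, are given above. The number of members called lower was 42 to 46 in the alternatives that kept all libraries and 41 to 45 with 1 library left out, and 0 were called higher in any of them. The number of all genes called moved more. With libraries scaled to the pan-macrophage markers 7131 genes were called, 7112 lower and 19 higher, and without replicate 1 of both genotypes 1188, of which 1011 were lower and 177 higher. With 1 library left out, 1382 to 3141 genes were called, 1032 to 1739 lower and 350 to 1402 higher; the lowest values were without Tet2 WT replicate 1, where 41 members were called lower, 1750 were called without Tet2 KO replicate 3, and 428, 595 and 608 were called higher without Tet2 KO replicate 3, Tet2 KO replicate 1 and Tet2 WT replicate 3. Limma on log2(TPM + 1) called 384 higher. The cause was not tested. Fn1, not called, changed sign under pan-macrophage scaling (-0.59), limma voom (-0.062), log2(TPM + 1) (-0.14) and the replicate block (-0.072), and without Tet2 KO replicate 2 or Tet2 WT replicate 1 (-0.53 and -0.04; -0.53 to 0.33 over all 6 leave-one-out fits), and Emilin2 under pan-macrophage scaling (-0.51). Relative to the fibroblast markers, the members called lower numbered 1 to 8 with 1 library left out (8 without Tet2 KO replicate 2, 1 without Tet2 KO replicate 3 or any 1 Tet2 WT library), 1 without replicate 1 of both genotypes or without the low-count filter, 4 when the 5 most abundant markers were left out and 9 with the replicate block, and those called higher 5 to 8 over all alternatives. Libraries share replicate numbers, and the labels do not say whether these numbers pair them. Same-numbered libraries deviated together weakly (r = 0.08, 0.17 and 0.06 across genes), and differently numbered ones had r from -0.13 to 0.07. With 3 libraries of each genotype these values cannot settle whether libraries were paired. With the replicate block 2347 genes were called, with 45 members lower. Depth limited Fmod, Fbn2 and transcript shares in Tet2 KO.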
